A study of Rattus norvegicus with 7 samples.

Results

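MiR-103 and miR-107, listed on the array as rno-miR-103 and rno-miR-107, were measured in the pancreatic islets of ageing rats. They were taken from the miRNA arrays by name, as every rat miRNA listed as miR-103 or miR-107, with passenger (star) strands left out, which gave 2 of the 677 rat miRNAs on the array. Islets of male Wistar rats were isolated by collagenase digestion, and their total RNA, labelled with Cy3, was hybridised to single-colour Agilent miRNA arrays with 1 array per rat. The rats were 12 months old (n = 4, replicates 2, 4, 10 and 16) or 3 months old (n = 3, replicates 9, 11 and 13), and no treatment is listed for either age. An islet preparation holds several cell types, so fewer cells of a type and less RNA per cell cannot be told apart in these values.

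MiRNAs are short RNAs that hold back translation or shorten the life of mRNAs that pair with them, mainly through the seed, bases 2 to 8 of the miRNA. MiR-103 and miR-107 are known for insulin sensitivity. In mice, raising them in liver or fat impairs glucose handling, silencing them improves it, and caveolin-1, a protein that stabilises the insulin receptor at the membrane of fat cells, is a known target. Their genes lie in introns of the pantothenate kinase genes, whose products start the synthesis of coenzyme A.

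The mature sequences are shown because the pair differs so little that the arrays had to tell them apart near the 3′ end. They were taken from RefSeq (GRCr8), 5′ to 3′, with the seed in capitals. The first pair is the one studied here, and the other sequences belong to the miR-15/16 group, listed for the offset in the seed.
rno-miR-103-3p: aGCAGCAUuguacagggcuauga
rno-miR-107-3p: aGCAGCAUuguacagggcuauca
rno-miR-16-5p: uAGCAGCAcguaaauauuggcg
rno-miR-15b-5p: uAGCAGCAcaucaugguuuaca
rno-miR-195-5p: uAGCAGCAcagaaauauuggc
rno-miR-322-5p: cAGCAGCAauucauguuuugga
rno-miR-497-5p: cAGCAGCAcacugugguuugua

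MiR-103 and miR-107 shared 22 of 23 bases. The single difference, counted from 1 at the 5′ end with the base of miR-103 first, was G22C, outside the seed. Among 694 mature rat entries in the RefSeq table, these 2 were the only ones with the seed GCAGCAU. The first 7 bases of the pair, AGCAGCA, formed the seed of miR-16, miR-15b, miR-195, miR-322 and miR-497, whose seeds are therefore shifted by 1 base. In the same annotation Mir107 lies inside Pank1, and the pair of genes that encode miR-103, Mir103a1 and Mir103a2, lie inside Pank3 and Pank2, each on the strand of its host. Both hairpins of miR-103 held the whole mature sequence, so the array reads their products as 1 miRNA.

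Each array held 14255 spots, of which 13540 belonged to rat miRNAs, and no spot was saturated. The software called between 246 and 296 miRNAs detected per array. The arrays of the older rats were brighter, with a median log2 difference of 0.79 over the 272 miRNAs tested, and quantile normalisation, which gives every array the same distribution of values, brought this median to 0.056. The 2 islet endocrine markers miR-375 and miR-7a were detected on all arrays, and the liver marker miR-122 was called detected on none.

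MiR-103 and miR-107 were detected on all 7 arrays, and neither passed the test of an age difference after normalisation. Their log2 fold changes, 12 months over 3 months, were -0.11 for each, with limma adjusted p values of 0.788 and 0.799. Of these 2 members 0 passed an adjusted p of 0.05, where 4 of the 272 miRNAs tested did, which is 1.47%. At an unadjusted p of 0.05 limma also called 0 of the 2, where it called 59 of 272, or 21.7%, and the plain test that the study's methods name called 0 of the 2 as well. Relative to the median of all tested miRNAs the log2 fold changes were -0.16 for miR-103 and -0.17 for miR-107.

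The total gene signal of miR-103, in scanner units before normalisation, was 854, 1196 and 796 in 3-month-old replicates 9, 11 and 13. At 12 months it was 1802, 1452, 1002 and 1611 in replicates 2, 4, 10 and 16. Replicates 2, 4 and 16 lay above every younger rat, and replicate 10 lay below 3-month-old replicate 11, so the ages overlapped. Older rats averaged 1467 ± 342 (SD, n = 4) and younger rats 949 ± 216 (SD, n = 3), a ratio of 1.55 (two-sided exact permutation test, p = 0.0857).

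For miR-107 the total gene signal was 1172, 1498 and 935 in 3-month-old replicates 9, 11 and 13. In 12-month-old replicates 2, 4, 10 and 16 it was 2409, 1902, 1426 and 2117. The order of the rats was the same as for miR-103, with the same single overlap between replicates 10 and 11. Means were 1963 ± 414 (SD, n = 4) and 1202 ± 283 (SD, n = 3), a ratio of 1.63 with the same exact permutation p of 0.0857.

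On the log2 scale before normalisation, miR-103 was higher at 12 months by 0.62 (95% interval 0.0034 to 1.23) and miR-107 by 0.71 (0.10 to 1.32). Their limma adjusted p values on this scale were 0.0689 and 0.0432, where 171 of the 272 miRNAs, or 62.9%, were below 0.05. Relative to the median of the tested miRNAs the differences were -0.17 for miR-103 and -0.083 for miR-107. Without 12-month-old replicate 10 the ages no longer overlapped before normalisation, with differences of 0.79 and 0.85 (exact permutation p = 0.1 for each, the smallest that 3 against 3 allow), beside a median of 0.91 over all tested miRNAs.

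**Figure D1:**
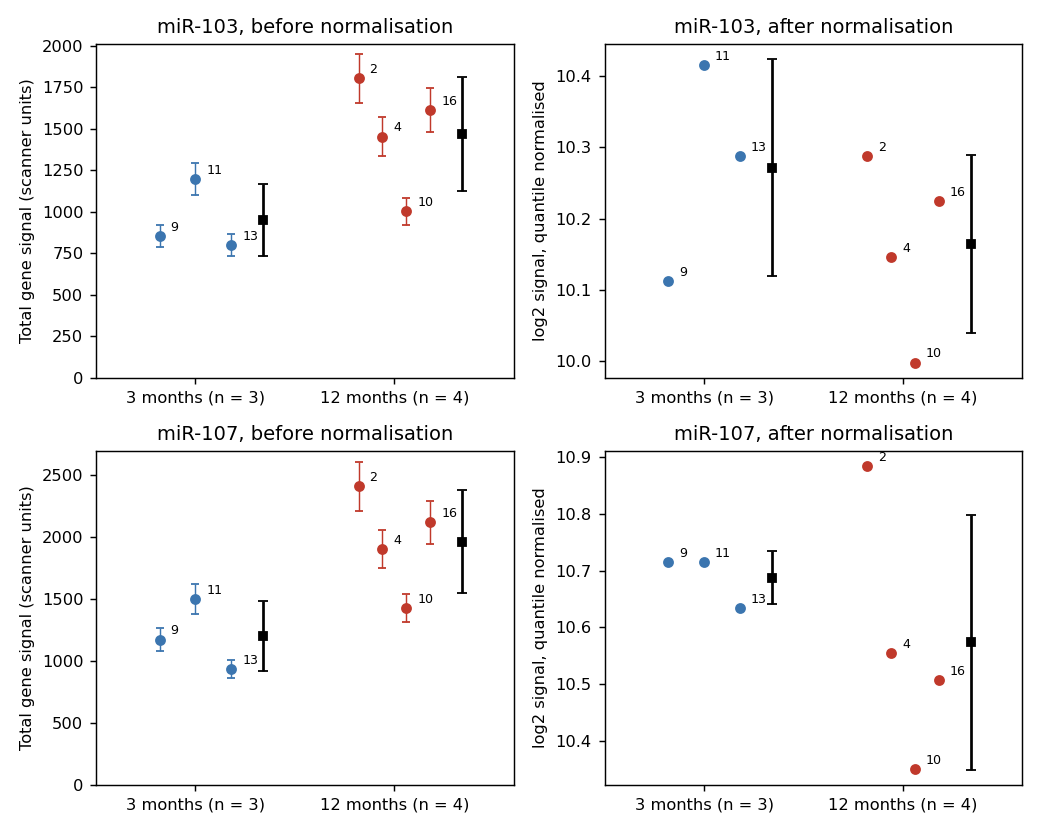
Signal of miR-103 (top) and miR-107 (bottom) in each rat, as total gene signal in scanner units with the software's error of that signal (left) and as log2 signal after quantile normalisation (right, axis not from 0). Points carry the replicate number, and black squares give the mean and SD of each age. Before normalisation 3 of the 4 older rats lie above all younger rats, and after it the ages overlap with the older mean slightly lower.

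After quantile normalisation the log2 signal of miR-103 was 10.11, 10.42 and 10.29 in 3-month-old replicates 9, 11 and 13, and 10.29, 10.15, 9.998 and 10.22 in 12-month-old replicates 2, 4, 10 and 16. The lowest value was that of 12-month-old replicate 10, and the others of both ages were interleaved. The means were 10.16 ± 0.12 (SD, n = 4) and 10.27 ± 0.15 (SD, n = 3), a difference of -0.11 (standard error 0.15; exact permutation p = 0.4). The 95% interval of the difference ran from -0.45 to 0.23, which is 0.734-fold to 1.17-fold.

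MiR-107 had normalised log2 signals of 10.71, 10.71 and 10.63 at 3 months (replicates 9, 11 and 13) and 10.88, 10.55, 10.35 and 10.51 at 12 months (replicates 2, 4, 10 and 16). The highest and the lowest of the 7 values both belonged to older rats. Means were 10.57 ± 0.22 (SD, n = 4) and 10.69 ± 0.047 (SD, n = 3), a difference of -0.11 (standard error 0.16; exact permutation p = 0.457). Its 95% interval ran from -0.49 to 0.26, or 0.714-fold to 1.196-fold. The small spread at 3 months came from ranks, since miR-107 ranked 32, 32 and 33 by signal among the 677 miRNAs of those arrays, and equal ranks receive equal values. At 12 months its rank ran from 30 to 37. MiR-103 ranked 36 to 41 at 3 months and 38 to 44 at 12 months.

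Neither difference kept its sign in both rows of the slide. In row 1, with 2 older rats and 1 younger, miR-103 was higher at 12 months by 0.10 and miR-107 by 0.0049 on the normalised log2 scale. In row 2, with 2 rats of each age, the differences were -0.24 and -0.25. With the row as a block they were -0.10 and -0.15, with unadjusted limma p values of 0.541 and 0.392.

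**Figure D2:**
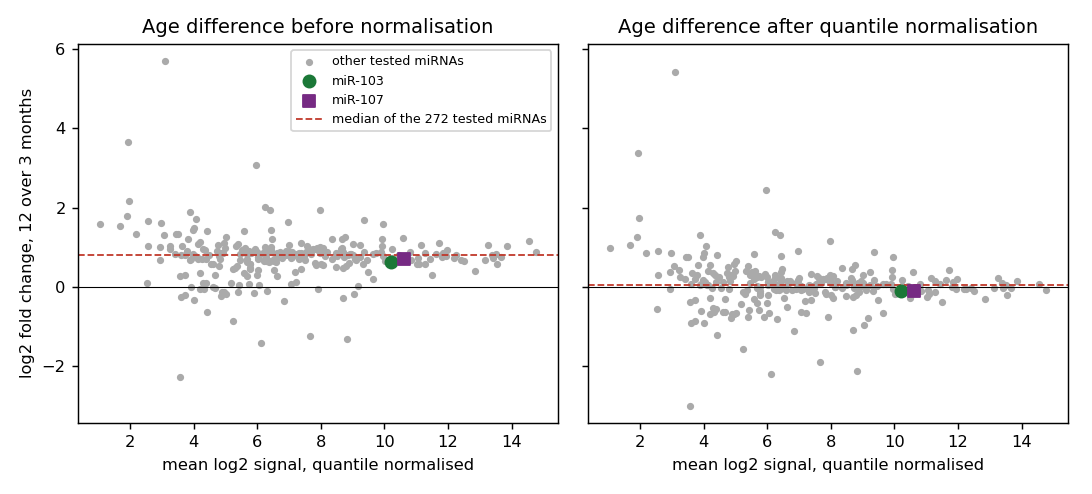
Age difference, as log2 fold change of 12 over 3 months, against mean normalised log2 signal for the 272 miRNAs tested, before normalisation (left) and after quantile normalisation (right). The dashed line is the median of all tested miRNAs, 0.79 and 0.056, and miR-103 and miR-107 lie just below it in both panels.

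The pair was among the steadier miRNAs tested, described without a test. The SD of miR-103 among rats of one age (residual SD of the fit) was 0.14, the 32nd smallest of 272, and that of miR-107 was 0.18, the 58th smallest, against a median of 0.27. Among the 40 miRNAs nearest in signal the median was 0.19 for miR-103 and 0.18 for miR-107, so their spread was close to that of miRNAs of like signal. The absolute age differences ranked 85th and 90th from the smallest, and the median over all tested miRNAs was 0.22.

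Each member was read by 2 probes with 10 spots each. All 280 spots of the pair over the 7 arrays were well above background and 15 were set aside by the software as outliers. Between spots of a probe on one array the coefficient of variation had a median of 2.497% and reached 6.06% at most. The error that the software assigns to the total gene signal was 8.02% to 8.34% of it.

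Before normalisation both probes of both members followed a like course over the rats, a course that includes the brightness of each array as a whole. On the array of a rat, the 4 probes deviated from their own means by amounts that differed by 0.035 to 0.23 on the log2 scale, whereas their mean deviation ranged over 1.32 between rats. The age differences before normalisation were 0.61 and 0.64 for the probes of miR-103 and 0.71 and 0.72 for those of miR-107. With each array shifted as its miRNA was in the normalisation, they were -0.11 and -0.087 for miR-103 and -0.12 and -0.11 for miR-107. The log2 ratio between the probes of miR-107 varied by an SD of 0.027 over the 7 arrays and that of miR-103 by 0.13, about as much as the residual SD of 0.14 that miR-103 had among rats of one age. Because the mature sequences differ at 1 base, the probes of one may also bind the other, which was not tested.

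**Figure D3:**
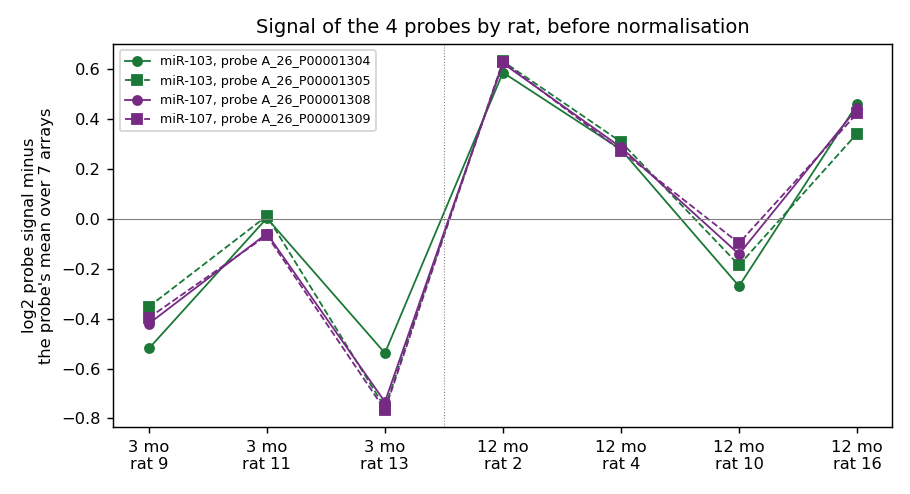
Log2 signal of each of the 4 probes before normalisation, as the deviation from the mean of that probe over the 7 arrays, by rat, with 3-month-old rats on the left. Probes of miR-103 are green and those of miR-107 purple, and the brightness of each array is part of these values. All 4 are highest in 12-month-old replicate 2 and lowest in 3-month-old replicate 13, and within a rat they lie within 0.23 of each other.

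Whether the pair changed unequally with age was asked on the difference of their log2 signals within an array, miR-107 minus miR-103, in which any scaling of a whole array cancels. Before normalisation it was 0.46, 0.32 and 0.23 in 3-month-old replicates 9, 11 and 13 and 0.42, 0.39, 0.51 and 0.39 in 12-month-old replicates 2, 4, 10 and 16. The younger rats held both of the lowest values, and the ages overlapped. The change of miR-107 exceeded that of miR-103 by 0.090 (exact permutation p = 0.2), with an interval from inverting that test at 95% of -0.067 to 0.28.
On normalised values, where ranks set the difference, it was -0.0064 (exact permutation p = 0.857) with an interval from -0.32 to 0.43. An unequal change of the pair's signals by up to 1.21-fold before normalisation, or 1.35-fold after it, lies inside these intervals. The intervals make no allowance for probes of one member binding the other, which was not tested. The normalised difference changed sign when 12-month-old replicate 10, 12-month-old replicate 16 or 3-month-old replicate 9 was left out, and it ranged from -0.081 to 0.11 when each of the 7 rats was left out in turn.

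The passenger strands of the same hairpins, miR-103-1*, miR-103-2* and miR-107*, were detected on 0 of 7 arrays each. Their total gene signals lay between -3.38 and -0.908 units, below the lowest detected signal of any array, which was 1.42.

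The miR-15/16 group, whose seed is shifted by 1 base, is known for holding back cell cycle genes. Of the 8 miRNAs listed for it 6 were on the array and 5 were tested, miR-15b, miR-16, miR-195, miR-322 and miR-497. MiR-503, whose seed AGCAGCG differs from AGCAGCA in its last base, was not detected on any array. By limma 0 of 5 passed an adjusted p of 0.05, beside 1.47% of all tested miRNAs. At an unadjusted p of 0.05, 2 of 5 were lower at 12 months, against 12.5% of all tested, and 0 were higher, against 9.19%. The median log2 fold change was -0.032, beside 0.056 over all tested miRNAs.
For miR-15b the normalised log2 signal averaged 8.83 ± 0.18 in the older rats (SD, n = 4) and 9.62 ± 0.44 in the younger (SD, n = 3). Its difference of -0.79 (standard error 0.22) had a limma adjusted p of 0.0758, and its ages did not overlap, as for 17.3% of all tested miRNAs. MiR-16 had a difference of -0.38 (standard error 0.16, limma adjusted p = 0.199). MiR-195, which is encoded beside miR-497, had 0.55 (standard error 0.25, limma adjusted p = 0.252) and miR-497 had 0.46 (limma adjusted p = 0.396). MiR-15b and miR-16 were lower at 12 months under 4 of 5 other scalings and higher, by 0.027 and 0.31, without normalisation. MiR-195 and miR-497 were higher under all 5. The count of 2 fell to 1 without 12-month-old replicates 4 or 10 or 3-month-old replicates 9 or 13, and rose to 3 without 12-month-old replicate 2 or 3-month-old replicate 11.

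A list of miRNAs with known roles in insulin action, among them let-7, miR-29, miR-26 and miR-143, held 25 names, of which 23 were on the array and 21 were tested. By limma 0 of 21 passed an adjusted p of 0.05, beside 1.47% of all tested miRNAs. At an unadjusted p of 0.05, 2 of 21 were lower and 0 were higher at 12 months, beside 12.5% and 9.19% of all tested miRNAs. In all, 10 had a higher and 11 a lower mean at 12 months, and the median log2 fold change was -0.0082.
The 2 were miR-181b, with a difference of -1.21 (standard error 0.39, limma adjusted p = 0.104) and lay between 11.5 and 37.1 units, and miR-378, an intronic miRNA linked to mitochondrial metabolism, with -0.43 (standard error 0.17, limma adjusted p = 0.17). MiR-181b was lower under all 5 other scalings and miR-378 under 4, the exception being no normalisation with 0.10. Without 3-month-old replicate 13 the count of 2 became 0, without 12-month-old replicates 2, 4 or 16 it became 1, and without 3-month-old replicate 9 it became 3. MiR-802, which rises in the liver of obese mice, was called detected in 2 of 4 older and 0 of 3 younger rats, and was not tested. Its signal lay between 2.34 and 8.22 units, near the lowest detected signal of each array, which was 1.42 to 4.92. The normalised log2 mean of miR-802 was 2.26 at 12 months and 2.53 at 3 months. Its values spread more widely among the younger rats (SD 1.01) than among the older ones (SD 0.30). With signals this near the detection limit, neither the calls nor these means can decide whether miR-802 changed with age.

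**Figure D4:**
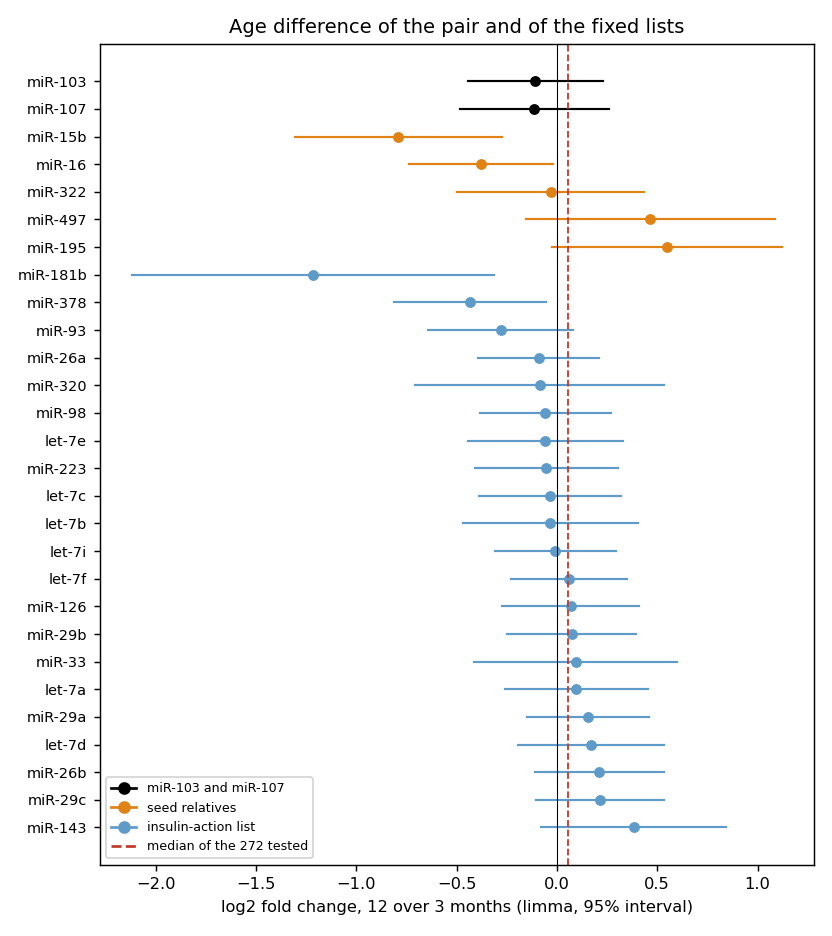
Log2 fold change of 12 over 3 months after quantile normalisation, with the 95% limma interval, for miR-103 and miR-107 (black), the miR-15/16 group (orange) and the insulin-action list (blue). The dashed line marks the median of the 272 miRNAs tested, 0.056. The intervals of both members include 0, and those of miR-15b, miR-16, miR-181b and miR-378 do not.

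The miRNAs with the course most like the mean of the pair were miR-7a, miR-30b-3p, miR-98, miR-30b-5p and miR-125a-5p. Likeness was the root mean square difference of the normalised log2 values over the 7 arrays after each miRNA was centred on its mean, and these 5 had 0.085, 0.085, 0.092, 0.098 and 0.11, the smallest of 270. All 5 had limma adjusted p values of 0.897 or more. This follows from their choice by likeness to a pair with little age difference, and is not a separate result. MiR-7a held one of the top ranks on every array, which quantile normalisation sets to fixed values, so its place here says little of its level.
MiR-103 and miR-107 differed from each other by 0.12 in this measure, against a median of 0.29 from miR-103 to the other tested miRNAs and 0.29 from miR-107. MiR-107 was the 13th nearest to miR-103 of 271, and miR-103 the 11th nearest to miR-107. With arrays centred on their median in place of quantile normalisation, they were 0.084 apart and ranked 5th and 6th.

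Markers of other cells were summed before normalisation, where arrays of the older rats were brighter, and compared one by one after it. Their part in the values of the pair was not tested. The 4 acinar miRNAs (miR-216a, both arms of miR-216b, and miR-217) summed to between 148 and 1456 units at 12 months and 889 and 1732 at 3 months, with 3 of 4 detected on every array. The 5 mesenchymal miRNAs (miR-143, miR-145, both arms of miR-199a, and miR-214) summed to between 2629 and 3645 units at 12 months and 736 and 1711 at 3 months. The 4 leukocyte miRNAs (both arms of miR-142, miR-150 and miR-223) summed to between 310.2 and 663 units against 142 and 222. The endothelial miR-126 lay between 2137 and 2743 against 1002 and 1726, and the 2 erythroid miRNAs, miR-144 and miR-451, summed to between 144 and 289 against 86.7 and 224. After normalisation 0 members of any of these lists passed a limma adjusted p of 0.05, beside 1.47% of all tested miRNAs. At an unadjusted p of 0.05, 3 of 3 tested acinar miRNAs were lower at 12 months, beside 12.5% of all tested. In the mesenchymal list 4 of 5 and in the leukocyte list 2 of 4 were higher, beside 9.19% of all tested. The 2 leukocyte ones were the arms of miR-142, and the 4 mesenchymal ones included both arms of miR-199a. Arms of the same hairpin are not independent counts. Among the higher ones, miR-145 was called detected in 4 older and 2 younger rats, and miR-142-5p in 4 and 0. Both therefore met the detection filter only through the age at which they were higher. Normalised log2 fold changes were 0.068 for miR-126 (limma adjusted p = 0.899), -0.69 for miR-144 (0.565) and -0.35 for miR-451 (0.706). MiR-143, miR-126 and miR-223 also belong to the insulin-action list.

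**Figure D5:**
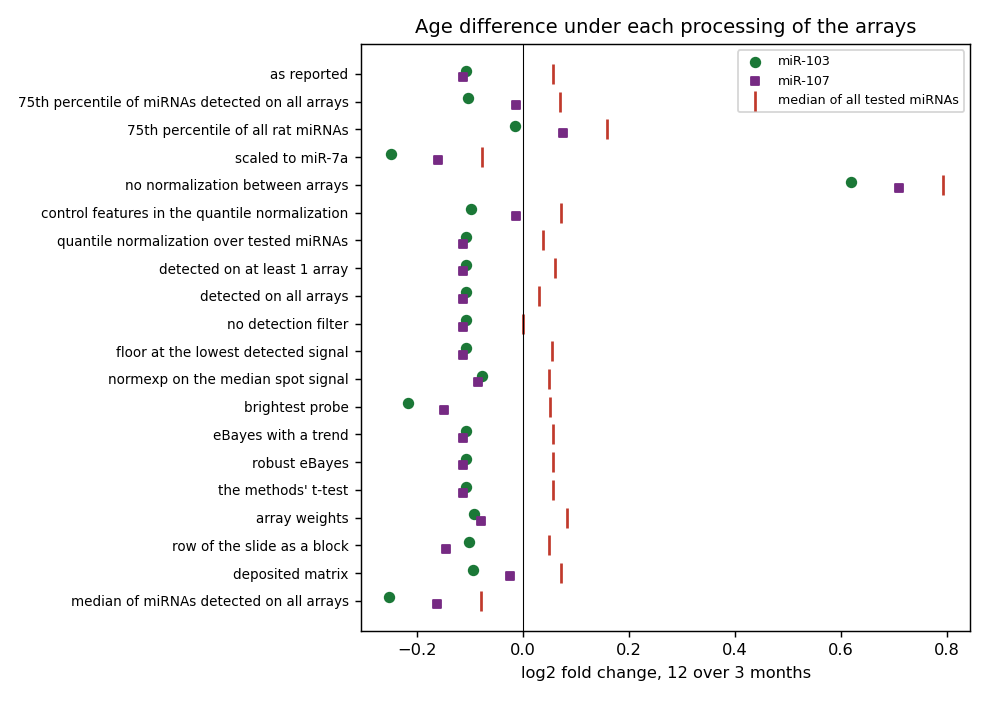
Log2 fold change of 12 over 3 months for miR-103 (green circles) and miR-107 (purple squares) under each processing of the arrays, with the median of all tested miRNAs as a red bar. Both members lie below that median in every row, and both lie above 0 only without normalisation between arrays, at 0.62 and 0.71.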

How the data were processed

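The authors deposited, for each of the 7 arrays, the output of Agilent Feature Extraction (version 10.7.3.1, per the labels) which holds linear intensities after background subtraction, median intensities before it, the local background, and flags, such as whether a miRNA was detected. A second deposited file holds log2 values of the same arrays, quantile normalised according to the notes on the same kind of values, whose offset and features are not given in the sources used here. The members and lists were chosen with earlier results of these data known.

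The total gene signal of the 677 rat miRNAs was floored at 1, put on a log2 scale and quantile normalised (limma 3.58.1, R 4.3.3). The 272 miRNAs that all arrays of one age or of both had detected were fitted with lmFit and eBayes, with two-sided p values and Benjamini-Hochberg adjustment over all 272. Single values were tested by exact permutation of the ages, with 35 possible splits, whose smallest two-sided p is 0.0286. The number of arrays limits the precision. With 1 array per rat, p values rest on a spread in which rat, islet preparation and array cannot be told apart. The limma p values also draw on the variance of all tested miRNAs. Named miRNAs were the pair, list members with an unadjusted p below 0.05 or among the 2 largest differences of a list, the 5 nearest in course and, outside this rule, miR-322, miR-497, miR-503, miR-802 and the marker miRNAs. The pipeline was tested on simulated data. Alternatives covered normalisation, filter, floor, signal summary, variance model, array weights, slide row, the deposited matrix and leaving out each rat. The header of the files names an older rat assembly (rn4), so no coordinates are given.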

Additional observations from a re-analysis of the deposited data

How the results depend on the processing

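No paired analysis was possible because the ages share no replicate numbers. MiR-103 kept a negative difference and an adjusted p above 0.05 under 25 of 26 alternatives, and miR-107 under 24 of 26. The detection filters, the variance models and the t-test could change only the p value, and the differences stayed at -0.11 for each. They were also unchanged with a floor at the lowest detected signal and with quantile normalisation over the tested miRNAs alone. The signs under all these alternatives are therefore not separate agreement. Without normalisation miR-103 was 0.62 (adjusted p = 0.0689) and miR-107 0.71 (adjusted p = 0.0432), and with the 75th percentile of all rat miRNAs miR-107 was 0.075 (adjusted p = 0.909). Over the 7 fits without 1 rat, miR-103 ranged from -0.20 to -0.037 and miR-107 from -0.23 to -0.027. Signal over background did not limit the pair, since all 280 of its spots were well above background.

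The difference miR-107 minus miR-103, -0.0064 as reported, became 0.090 under every scaling of whole arrays (both 75th percentiles, miR-7a, none and the median of miRNAs detected on all arrays, the last chosen after seeing the data), 0.085 with control features in the quantile normalisation, 0.068 with the brightest probe and 0.070 with the deposited matrix, with exact permutation p values from 0.2 to 0.486. The scalings of whole arrays give the same value by construction, since they cancel in this difference. The difference stayed negative with the row as a block (-0.044, exact permutation within rows, p = 0.5). It was also negative with the normexp model of background (-0.0079, exact permutation p = 0.914). Quantile normalisation over the tested miRNAs and the floor at the lowest detected signal left it at -0.0064. Over the fits without 1 rat it ranged from -0.081 to 0.11.

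The count of all miRNAs below an adjusted p of 0.05, 4 as reported, was 21 and 10 with the 75th percentile taken over miRNAs that every array detected and over all miRNAs, 15 with miR-7a, 171 without normalisation, 8 with control features and with the deposited matrix, 1 over miRNAs detected on all arrays, 13 with the brightest probe, 48 with array weights and 34 with the median, and 4 to 10 without 1 rat. The count at an unadjusted p below 0.05, 59 as reported, was 36 with miR-7a, 193 without normalisation, 89 with array weights, and 41 to 88 without 1 rat. The methods' t-test gave 49 at an unadjusted p below 0.05 and 3 after Benjamini-Hochberg adjustment. The calls split into 25 higher and 34 lower as reported, 189 and 4 without normalisation, 8 and 28 with miR-7a, 49 and 40 with array weights, 16 and 41 with the median, and 27 and 23 with normexp, a model of background, on the median spot signal.

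For the miR-15/16 group, the count at an unadjusted p below 0.05 was 1 with array weights and with the row as a block, and 1 to 3 without 1 rat. Its count after adjustment was 3 without normalisation and 1 with array weights and with the median, and 0 without any 1 rat. Its median was 0.75 without normalisation and -0.19 to 0.085 without 1 rat. For the insulin-action list, the unadjusted count was 4 with the 75th percentile of all miRNAs, 1 with miR-7a and with normexp, 17 without normalisation, 6 with control features and with the deposited matrix, and 0 to 3 without 1 rat. Its adjusted count was 17 without normalisation, 1 with control features, array weights and the deposited matrix, 2 with the median, and 0 without any 1 rat. Its median was 0.051 and 0.14 with the 75th percentiles, -0.096 with miR-7a, 0.77 without normalisation, 0.074 with control features, 0.038 with normexp, 0.051 with the brightest probe, 0.033 with array weights, 0.049 with the deposited matrix, -0.099 with the median, and -0.019 to 0.070 without 1 rat.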
